A study of Homo sapiens with 372 samples.

Results

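A2780 is an established line of human ovarian endometrioid adenocarcinoma cells, and the comparison described here asks what celecoxib changed in A2780 cells that already had paclitaxel. The cells given both drugs for 16 h, 5 nM paclitaxel with 75 μM celecoxib, are called combination cells, and those given 5 nM paclitaxel alone for 16 h are called paclitaxel cells. They were taken by the treatment named in their column, which gave 59 combination cells and 56 paclitaxel cells, 115 of the 338 single cells in the table. A further 61 cells with 75 μM celecoxib alone for 16 h and 46 untreated control cells are used only to set the same drug beside its effect without paclitaxel. All groups were the same unmodified line in the same medium, trypsinised before capture. A general treatment note in the labels gives 48 h for these drugs, whereas the group label and the extraction note give 16 h for the combination, and the group label is followed here.

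Paclitaxel binds beta-tubulin, stabilises microtubules and holds dividing cells in mitosis. Celecoxib was made as an inhibitor of cyclooxygenase 2, the inducible enzyme of prostaglandin synthesis, and at micromolar doses it is also known to empty the calcium store of the endoplasmic reticulum (ER). The unfolded protein response answers trouble in the ER through sensors that act on XBP1, ATF6 and, by phosphorylation of eIF2α, on translation of the transcription factor ATF4. ATF4 is also the common endpoint of amino acid shortage, and with its partner CHOP it drives genes of amino acid synthesis, amino acid import and tRNA charging.

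Each treatment was captured as 1 run on a microfluidic chip, so there is 1 sample per treatment and no test between treatments was possible. Run and treatment cannot be told apart, and SDs below are over cells and not over cultures. The combination cells lay in 2 blocks of 96 library numbers, 34 cells in index block 1 and 25 in index block 3, and all 56 paclitaxel cells lay in block 1. The authors had removed 2 of 58 paclitaxel wells and 0 of 59 combination wells, and 1 retained combination well was noted 0 rather than 1 at capture. Genes detected per cell had a median of 6125.5 (range 4817 to 8316) in the paclitaxel cells and 6129 (5089 to 8499) in the combination cells. Read depth per cell is unknown, and doublets could not be called without counts. Of 14 markers of ovarian lines, 4 were in the table (KRT18, VIM, LIN28B and ARID1A) and none was past the limit given below on the same-total scale. Of 16 markers of other cell types, 3 were in the table, namely COL1A2, COL3A1 and LUM, all of them genes of fibroblast matrix. COL3A1 was detected in 71.4% of the paclitaxel cells and 66.1% of the combination cells, COL1A2 in 10.7% and 20.3%, and LUM in 12.5% and 10.2%.

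Expression is given as E, the log2 of a gene's TPM relative to the most abundant spike-in RNA of the same well, divided by 10 and with 1 added. On this deposited scale E follows the amount of a transcript per cell, as far as each well received the same spike-in. A second version, the same-total scale, set every cell's summed transcripts to the same value, so that E there follows a gene's share of its cell's transcripts. A gene was called up or down when its mean E differed by more than 1.5-fold (0.58 on the log2 scale), among the 9175 genes detected in more than 30% of the cells of either group. Of these genes, 503 passed only through the combination cells and 447 only through the paclitaxel cells. For such genes the filter itself favours a difference towards the group that passed. With no replicate runs, a call is a size and not a test.

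The combination cells held more transcript per cell than the paclitaxel cells. Relative to the median paclitaxel cell, the log2 total ran from −0.92 through 0 to 2.52 over the 56 paclitaxel cells and from 0.19 through 1.48 to 3.84 over the 59 combination cells, a 2.78-fold difference between the medians. All 59 combination cells were above the paclitaxel median and 58 of them were above the 90th percentile of the paclitaxel cells, although only 2 exceeded the highest paclitaxel cell. The groups thus overlapped at the top of the paclitaxel range. The median was 1.63 for the 34 combination cells in index block 1, which also holds the paclitaxel cells, and 1.37 for the 25 in block 3. The number of genes detected was nearly the same in both groups, with a mean of 6217 ± 714 (SD over cells) and 6322 ± 691 genes.

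**Figure D1:**
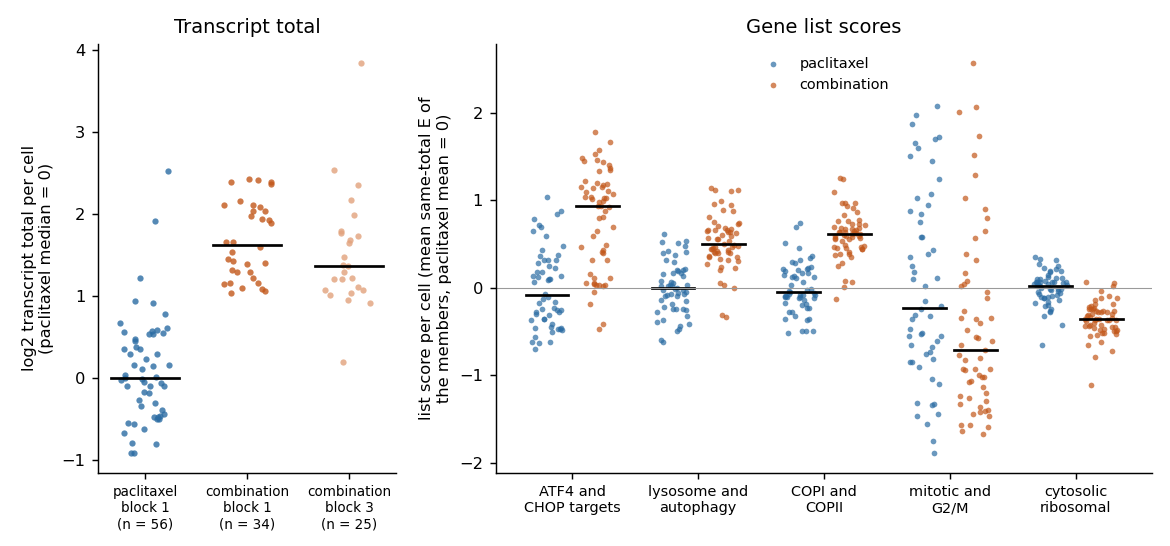
Single cells by treatment, with black bars at the medians. Left, log2 transcript total per cell relative to the median paclitaxel cell, for 56 paclitaxel cells and for the combination cells in index block 1 (34) and block 3 (25), with medians of 0, 1.63 and 1.37. Right, mean same-total E over the tested members of 5 gene lists in each cell, with the mean of the paclitaxel cells set to 0. The combination medians are 0.94, 0.51, 0.61, −0.71 and −0.36 from left to right. The list with the median of 0.61, coat and cargo proteins, was written after the values had been seen, so its scores carry no weight.

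On the deposited scale most calls were in the direction of this total. Of 9175 genes, 6020 were called up (65.6%) and 3 were called down (0.0327%), 3152 lay within the limit, and the median difference over all genes was 0.85. The 3 genes called down were RRM2, the small subunit of ribonucleotide reductase, DDX46, a helicase of the spliceosome, and MEST, an imprinted gene of the hydrolase fold. Their differences in mean E were −0.69, −0.67 and −0.68, but RRM2 was at 0.20 when the means were taken on the linear scale. MEST was detected in 18 of 56 paclitaxel cells and 6 of 59 combination cells. It passed the detection filter only through the paclitaxel cells, so the filter itself favoured its fall.

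With equal totals, 924 genes were called up (10.1%) and 158 down (1.72%), and the median difference over all genes was 0.11. All 924 were also up on the deposited scale. Of the 158 down, 61 were up on the deposited scale, 94 lay within the limit there and the 3 above were down on both. With that median subtracted before the limit was applied, the counts were 597 and 281. Scaling all combination cells by 1 factor, taken from the median ratio of linear means over genes and not from the totals, gave 501 up and 255 down, so the split of the calls, 85.4% up on the same-total scale, became 68.0% and 66.3% up. Without the well noted 0 the counts were 939 and 160. The genes described below are read against 0.11 and against these percentages, which are not matched for expression level. As a yardstick from within the treatment, the 25 combination cells in block 3 set against the 34 in block 1 gave 209 genes up and 331 down on the same-total scale. Of the 924 genes up against paclitaxel, 555 were up with either block used alone, and of the 158 down, 83 were.

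**Figure D2:**
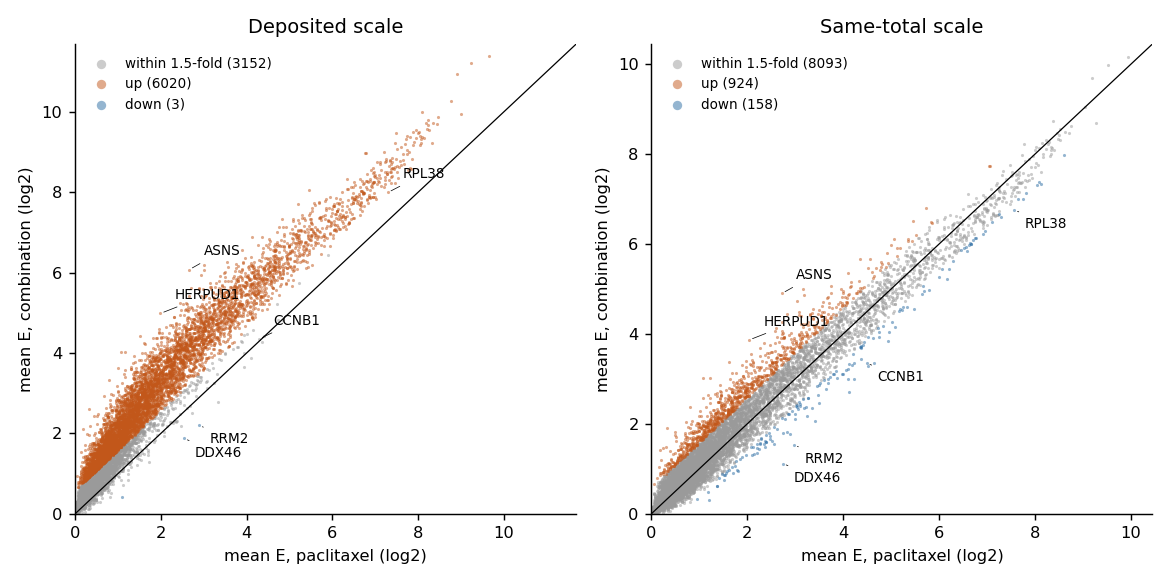
Mean E of the combination cells (y axis, log2) against that of the paclitaxel cells (x axis, log2) for the 9175 genes tested, on the deposited scale (left) and the same-total scale (right), with the diagonal at equal values. On the left 6020 genes lie above the 1.5-fold limit and 3 below it; on the right 924 lie above and 158 below.

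Of the 10 genes furthest up on the same-total scale, 3 were enzymes of amino acid synthesis, namely ASNS, PHGDH and PSAT1. ASNS, asparagine synthetase, had an E of 0.00 to 5.47 in the paclitaxel cells with a median of 3.01, and of 0.00 to 6.87 in the combination cells with a median of 5.22. Its difference in mean E was 2.18 on the same-total scale and 3.41 on the deposited scale, the largest on either scale among genes detected in at least 30% of both groups. The ranges overlapped, and 54 of 59 combination cells were above the paclitaxel median. ASNS was detected in 80.4% of the paclitaxel cells (exact Clopper-Pearson 95% interval 67.6 to 89.8%) and 98.3% of the combination cells (90.9 to 100.0%), intervals that cover counting error only.

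PCK2, the mitochondrial enzyme that makes phosphoenolpyruvate, was low in most paclitaxel cells. Its E ran from 0.00 to 3.59 with a median of 0.65 there and from 0.00 to 5.26 with a median of 3.41 in the combination cells, a difference in means of 1.96. PHGDH and PSAT1 carry out the first steps of serine synthesis from a glycolytic intermediate. PHGDH had a median of 3.46 (0.00 to 5.29) in the paclitaxel cells and 5.28 (0.00 to 6.62) in the combination cells, a difference in means of 1.84. PSAT1 had medians of 3.52 (0.00 to 6.00) and 4.97 (0.00 to 6.31), with a difference in means of 1.71. Of the 59 combination cells, 55 were above the paclitaxel median for PHGDH, 55 for PSAT1 and 51 for PCK2, with overlapping ranges for all 3 genes. SHMT2 and MTHFD2, which pass the serine carbon into the mitochondrial folate cycle, differed by 1.23 and 1.10.

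All of these enzymes except PCK2 belong to a wider list of ATF4 and CHOP targets, of which 41 of 46 genes were tested. On the same-total scale 22 were up (53.7%, against 10.1% of all genes) and none was down. The median difference was 0.65, the lowest was 0.11 and all 41 were above 0. The transporters in the list included SLC3A2, the heavy chain shared by several amino acid exchangers, at 1.55, and SLC1A5, the glutamine carrier, at 0.99. SLC7A11, the cystine carrier that pairs with SLC3A2, was at 0.45, and SLC7A5, the leucine carrier, at 0.19, both within the limit. Among regulators, DDIT3, which encodes CHOP itself, had medians of 2.90 (0.00 to 5.62) and 4.25 (0.00 to 7.08) in the paclitaxel and combination cells and a difference in means of 1.42. TRIB3, an inhibitor of ATF4 activity, was at 1.25, DDIT4, an inhibitor of mTORC1, at 1.43, and the ATF4 transcript at 0.65. CHAC1, which degrades glutathione, was detected in 16 of 56 paclitaxel cells and 34 of 59 combination cells and differed by 1.16. CHAC1 is counted among the 22 genes up, but it passed the detection filter only through the combination cells. For CHAC1 the filter itself thus favoured a rise.

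Scored per cell as the mean same-total E over these 41 genes, with the paclitaxel mean set to 0, the list ran from −0.70 through −0.09 to 1.04 in the paclitaxel cells and from −0.47 through 0.94 to 1.79 in the combination cells. Of the 59 combination cells, 56 were above the paclitaxel median and 22 were above the highest paclitaxel cell. The score also followed the log2 total within each group, with a Spearman rho of 0.61 over 56 paclitaxel cells and 0.32 over 59 combination cells; both measures come from the same wells. Its part in the difference between the groups was not tested. With the combination cells of block 1 alone the list median was 0.60, and with those of block 3 alone 0.67.

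ATF4 binds a short composite element, whose core was searched as TGATGNAA on both strands. The promoters shown here, of ASNS and CHAC1 from the list and of HERPUD1 from the ER list described below, were picked because they hold it. The sequences are the 250 bases before the annotated start, from RefSeq on GRCh38.p14, written 5′ to 3′ on the strand of the gene with the matching letters in capitals, in the orientation found.
ASNS: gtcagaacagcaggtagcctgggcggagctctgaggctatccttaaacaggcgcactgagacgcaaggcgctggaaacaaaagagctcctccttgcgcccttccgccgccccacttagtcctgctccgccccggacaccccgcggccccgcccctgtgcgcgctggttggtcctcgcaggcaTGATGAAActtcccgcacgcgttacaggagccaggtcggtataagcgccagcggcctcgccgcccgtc
HERPUD1: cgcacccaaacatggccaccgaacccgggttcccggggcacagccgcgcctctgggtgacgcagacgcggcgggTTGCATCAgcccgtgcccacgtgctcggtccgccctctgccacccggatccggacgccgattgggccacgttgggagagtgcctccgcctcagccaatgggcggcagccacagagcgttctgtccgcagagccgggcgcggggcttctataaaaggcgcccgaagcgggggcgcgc
CHAC1: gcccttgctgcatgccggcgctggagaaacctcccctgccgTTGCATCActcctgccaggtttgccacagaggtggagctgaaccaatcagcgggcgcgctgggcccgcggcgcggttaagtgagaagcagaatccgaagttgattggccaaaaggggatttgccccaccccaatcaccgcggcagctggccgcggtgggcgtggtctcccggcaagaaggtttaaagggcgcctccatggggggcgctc
The windows are chr7:97872409-97872658 on the minus strand for ASNS, chr16:56931892-56932141 on the plus strand for HERPUD1 and chr15:40953221-40953470 on the plus strand for CHAC1, each placed by the RefSeq start. In GENCODE 44 the gene HERPUD1 begins just after its window, at chr16:56932142-56944864, while ASNS (chr7:97851677-97872542) and CHAC1 (chr15:40952962-40956512) have further annotated starts, so that part of their windows lies inside the gene. The match begins 68 bases before the start in ASNS, 176 in HERPUD1 and 209 in CHAC1. In HERPUD1 and CHAC1 it reads TTGCATCA, the core on the other strand. Of 35116 promoter windows of 300 bases, 1270 hold the core (3.62%), as do 190 of the 7582 tested genes with a window (2.51%) and 36 of the 768 genes up with one (4.69%). In the ATF4 and CHOP list 12 of 34 genes with a window hold it (35.3%), 8 of them up, among them SLC3A2, SLC1A5, AARS, CARS, GARS and MARS. CHAC1 is also among these 8, although it passed the detection filter only through the combination cells. Of the 22 without the core, 11 were up, and PHGDH, PSAT1, DDIT3, DDIT4 and TRIB3 are among these. A match describes these letters only.

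The cytosolic aminoacyl-tRNA synthetases, which load amino acids onto tRNA, partly share that list. Of 20 tested, 8 were up (40.0%), none was down and the median difference was 0.47. SARS was at 1.31, YARS at 1.18 and WARS at 1.12, whereas VARS at −0.05, DARS at −0.03 and FARSB at −0.02 lay near 0. Of the 16 mitochondrial synthetases tested 0 were past the limit, with a median of 0.20. Both lists of synthetases were written after the values had been seen, so their counts carry no weight as a result about the synthetases.

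HERPUD1, a component of the machinery that returns misfolded proteins from the ER to the proteasome, led the ER list. Its E ran from 0.00 through 2.44 to 4.91 in the paclitaxel cells and from 0.00 through 4.10 to 6.21 in the combination cells, a difference in means of 1.83. XBP1, the transcription factor activated by splicing in the unfolded protein response, had medians of 2.69 (0.00 to 6.06) and 4.13 (0.00 to 5.59) and differed by 1.46. The groups overlapped for both genes, with 51 and 48 of 59 combination cells above the paclitaxel median. HSPA5, the chief chaperone of the ER, was detected in all cells of both groups, with medians of 4.12 (1.58 to 6.87) and 5.12 (0.24 to 8.19) and a difference of 0.91.

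The ER list as a whole did not move as one. Of 29 genes tested, 6 were up (20.7%), none was down and 23 were within the limit, with a median of 0.24. The other genes up were DNAJB11 and DNAJB9, co-chaperones of HSPA5, at 0.87 and 0.86, and PDIA4, a disulfide isomerase, at 0.78. The chaperones HSP90B1 and CALR were at −0.08 and −0.05, and MANF and CRELD2, secreted proteins of the ER stress response, were at −0.20 and −0.28. XBP1 is shown with the ER stress response element, searched on both strands as CCAAT, 9 bases of any kind and CCACG, in the window chr22:28800570-28800819 on the minus strand of GRCh38.p14.
XBP1: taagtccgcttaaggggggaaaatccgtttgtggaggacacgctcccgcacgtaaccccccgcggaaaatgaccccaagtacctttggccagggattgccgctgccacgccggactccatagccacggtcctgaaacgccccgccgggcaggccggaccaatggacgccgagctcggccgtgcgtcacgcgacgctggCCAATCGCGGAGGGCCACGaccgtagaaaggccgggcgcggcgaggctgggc
The element begins 52 bases before the start. It is present in 27 of 35116 windows (0.0769%) and in 8 of the 28 ER genes with a window (28.6%). Of these 8, HSPA5 and XBP1 were up and HSP90B1, CALR, CANX, PDIA6, CRELD2 and ERO1B were within the limit.

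Several genes of transport between the ER and the Golgi were up. COPI and COPII are the protein coats of the vesicles that travel back to the ER and forward to the Golgi. In a list of coat and cargo proteins written after the values had been seen, 23 of 45 genes were up (51.1%), 22 were within the limit and none was down, with a median difference of 0.59; the choice of this list gives its count no weight as a result about the group. YIF1B, a Golgi membrane protein and the highest of the list, had medians of 3.07 (0.00 to 5.61) and 4.49 (0.00 to 6.66) and differed by 1.62, with 56 of 59 combination cells above the paclitaxel median. COPB2, a subunit of the COPI coat, had medians of 2.96 (0.00 to 4.90) and 4.15 (0.08 to 5.70) and differed by 1.47. Other COPI subunits were at 1.31 (COPZ1), 0.90 (COPG1), 0.86 (ARCN1), 0.61 (COPB1) and 0.47 (COPA and COPE). In the COPII coat SEC13 was at 1.15, SEC23A at 0.83 and SEC31A at 0.73, while the cargo-selecting subunits SEC24A, SEC24B, SEC24C and SEC24D ran from −0.18 to 0.33. The score of this list was above the paclitaxel median in 58 of 59 combination cells and above the highest paclitaxel cell in 13. For the same reason as the count, this score carries no weight as a result about the group.

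Lysosomal genes were among those up. Of 38 lysosome and autophagy genes tested, 15 were up (39.5%), none was down and the median difference was 0.48. LAMP2, a major protein of the lysosomal membrane, had medians of 1.33 (0.00 to 4.91) and 3.19 (0.00 to 4.82) and differed by 1.42. CTSB, a cysteine protease of the lysosome, had medians of 3.12 (0.00 to 5.56) and 4.32 (0.47 to 5.93) and differed by 1.35. PSAP, the precursor of the saposins that help degrade sphingolipids, differed by 1.25 and was above the paclitaxel median in 53 of 59 combination cells. ATP6AP1, an accessory subunit of the lysosomal proton pump, differed by 1.18. The pump's own subunits ran from 0.18 (ATP6V1F) to 0.84 (ATP6V1H), and LAMP1, the other major membrane protein, was at −0.09. The list score exceeded the highest paclitaxel cell in 23 of 59 combination cells.

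The remaining genes among the 10 furthest up came from no common list. They were SMIM14, a small membrane protein, at 1.80, PHYHD1, a relative of phytanoyl-CoA hydroxylase, at 1.77, SSBP2, a DNA-binding partner of LDB1, at 1.69, and CORO1B, an actin-binding coronin, at 1.57. CORO1B had a median of 0.32 (0.00 to 3.11) in the paclitaxel cells and 2.72 (0.00 to 4.84) in the combination cells, so that 49 of 59 combination cells were above the paclitaxel median. SSBP2 was also among the 5 furthest up on the deposited scale, at 3.04, with HERPUD1, PHGDH and PSAT1 at 3.00 to 3.18.

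**Figure D3:**
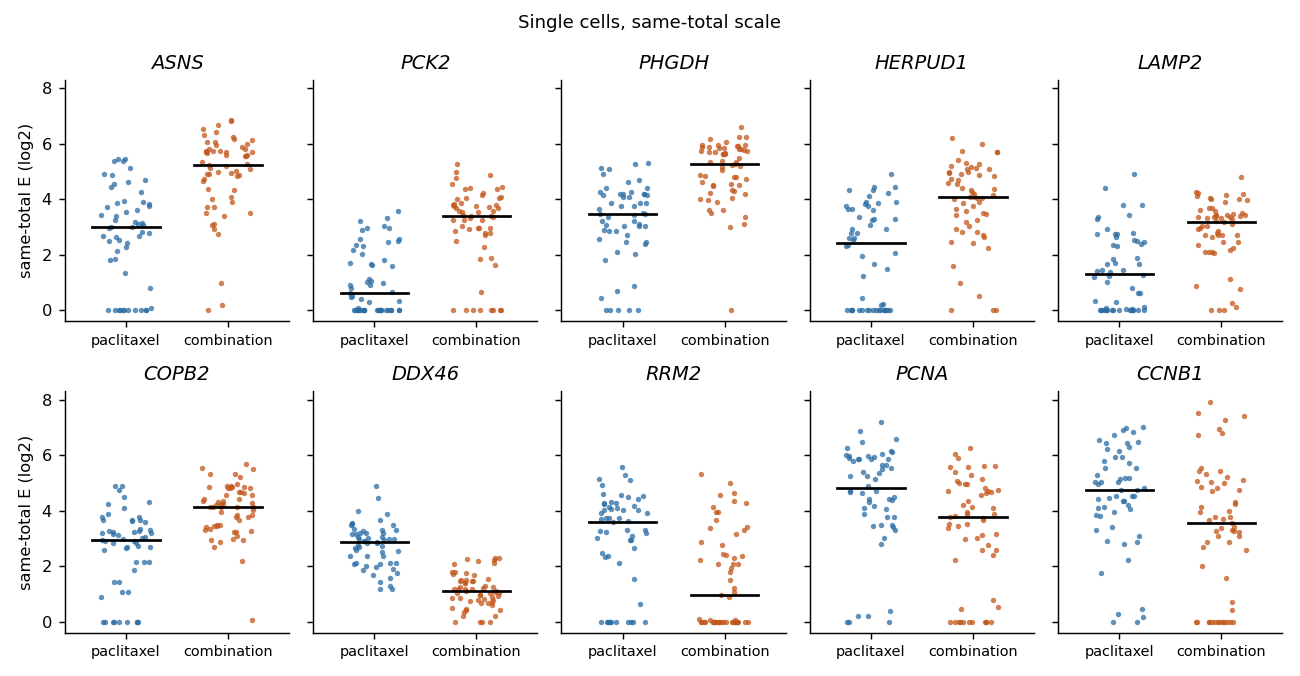
Same-total E (log2) of 10 genes in each of 56 paclitaxel and 59 combination cells, with black bars at the medians. The first 6 genes are higher and the last 4 lower in the combination cells; the ranges of the groups overlap for every gene. For DDX46 all 59 combination cells lie below the paclitaxel median of 2.86.

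The gene furthest down on the same-total scale was DDX46, which works in assembly of the early spliceosome. It had an E of 1.19 to 4.89 with a median of 2.86 in the paclitaxel cells and of 0.00 to 2.30 with a median of 1.09 in the combination cells. All 59 combination cells were below the paclitaxel median, and the difference in means was −1.63. It was −1.69 with block 1 alone and −1.53 with block 3 alone. FABP5, a fatty acid carrier, differed by −1.35 and HNRNPDL, a relative of the hnRNP D splicing regulator, by −1.30. PDAP1, which binds a platelet growth factor, differed by −1.11, and STRA13, now named CENPX, a centromere and DNA repair protein, by −1.10. On the deposited scale HNRNPDL, PDAP1 and STRA13 lay at 0.01, −0.01 and 0.06 in the main setting. Their amount per cell was thus about the same there while the total was higher. Over the processing alternatives described below they ran from −0.41 to 0.34, −0.12 to 0.48 and −0.19 to 0.55. SFXN5, a mitochondrial carrier, was at −0.40 on the deposited scale, among the 5 lowest of the genes detected in at least 30% of both groups, and at −0.70 with equal totals.

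The genes furthest down also included RRM2 and PCNA, both of DNA replication. RRM2, whose product with RRM1 makes deoxynucleotides, had medians of 3.61 (0.00 to 5.59) and 0.97 (0.00 to 5.33) and differed by −1.44. It was detected in 80.4% of the paclitaxel cells (95% interval 67.6 to 89.8%) and 57.6% of the combination cells (44.1 to 70.4%). PCNA, the sliding clamp of DNA polymerase, differed by −1.24, TK1, the salvage kinase for thymidine, by −0.998 and GINS2, part of the replicative helicase, by −0.89. PCNA depended on the index block, at −0.66 with block 1 alone and −2.02 with block 3 alone. RRM1, the partner of RRM2, was at −0.11. Of 45 S-phase and replication genes tested, 7 were down (15.6%, against 1.72% of all genes) and none was up, with a median of −0.18, of −0.08 with block 1 and of −0.32 with block 3.

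Mitotic genes supplied 15 of the 158 genes called down on the same-total scale. Of 48 mitotic and G2/M genes tested, 15 were down (31.2%, against 1.72% of all genes), 33 were within the limit and none was up, with a median of −0.36. On the deposited scale 12 were up, 36 were within the limit and none was down, with a median of 0.22 against 0.85 for all genes. CCNB1, the cyclin that drives entry into mitosis, had medians of 4.75 (0.00 to 7.00) and 3.55 (0.00 to 7.91) and differed by −1.13 with equal totals and by 0.06 as deposited. UBE2C, the ubiquitin carrier of the anaphase-promoting complex, differed by −1.23, PTTG1, or securin, by −1.09, and CENPF, a kinetochore protein, by −1.05. CENPW, another kinetochore protein, differed by −1.42 and was detected in 54 of 56 paclitaxel cells and 43 of 59 combination cells. CCNB1 and PTTG1 were within the limit when the means were taken on the linear scale, at −0.34 and −0.31.

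The groups overlapped widely in these genes. The mitotic score ran from −1.89 through −0.23 to 2.08 in the paclitaxel cells and from −1.67 through −0.71 to 2.57 in the combination cells, and 19 of 59 combination cells were above the paclitaxel median. The median difference of the list was −0.19 with the combination cells of block 1 and −0.60 with those of block 3. The score followed the log2 total within each group, with a Spearman rho of 0.55 in the paclitaxel cells and 0.49 in the combination cells. CDC20, the activator of the anaphase-promoting complex, differed by −1.01 and is shown with the cell cycle genes homology region, searched as TTTGAA on both strands, in the window chr1:43358731-43358980 on the plus strand of GRCh38.p14.
CDC20: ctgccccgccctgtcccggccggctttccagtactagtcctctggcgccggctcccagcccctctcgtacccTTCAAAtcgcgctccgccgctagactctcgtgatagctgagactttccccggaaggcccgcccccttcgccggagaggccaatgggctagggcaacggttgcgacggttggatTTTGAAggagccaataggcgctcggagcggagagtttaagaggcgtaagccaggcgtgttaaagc
The 2 matches begin 178 and 65 bases before the start. These 6 letters are present in 15.2% of all windows, in 13.4% of tested genes with a window and in 29 of the 40 mitotic genes with one (72.5%). Of those 29, 9 were down, and of the 11 without the letters, 3 were.

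The calls for ribosomal protein genes depended on the scale. All 80 cytosolic ribosomal protein genes were up on the deposited scale, with a median of 1.16. With equal totals 15 were down (18.8%), 65 were within the limit, none was up and the median was −0.34. RPL38, a small protein of the large subunit, had medians of 7.60 (5.98 to 8.52) and 6.77 (5.39 to 7.75), a difference in means of −0.81, and 55 of 59 combination cells were below the paclitaxel median. RPL35, RPL27 and RPL22 differed by −0.71, −0.69 and −0.68. Of these 80 genes, 47 fell in the shortest of 5 equal groups of genes by longest annotated transcript, where the median difference of 1834 genes was 0.15. In the splicing list, 6 of 28 SR and hnRNP genes were down (21.4%), with HNRNPL at −0.87, HNRNPD at −0.86 and HNRNPM at −0.67, and none was up.

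The respiratory chain followed the total. All 37 Complex I genes, all 26 genes of Complexes II to IV and all 18 ATP synthase genes were up on the deposited scale, with medians of 1.33, 1.36 and 1.37. With equal totals their medians were −0.12, −0.12 and −0.13, and 1, 1 and 0 genes were up and 0, 1 and 1 down. The Complex I gene up was NDUFS1, its largest core subunit, at 0.94. SDHC, a membrane anchor of Complex II, was at 0.82, UQCRQ of Complex III at −0.79 and ATP5G1, a gene for the rotor ring, at −0.61. The Complex I score ran from −0.45 through 0.03 to 0.33 in the paclitaxel cells and from −0.50 through −0.06 to 0.27 in the combination cells, with 17 of 59 combination cells above the paclitaxel median.

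Other lists of general cell functions had few calls in either direction. For mitochondrial ribosomal proteins 2 of 76 genes were up and 5 down (6.58%, against 1.72% of all genes), with a median of −0.10, MRPS22 at 0.87 and MRPS28 at −0.90. For the proteasome 1 of 36 was up and 1 down, PSMG1, an assembly chaperone, at 0.59 and the subunit PSMB4 at −0.93, and the median was −0.17. Of 17 glycolysis genes 0 were past the limit, with PKM highest at 0.47. Of 12 RNA polymerase II subunits 2 were down (16.7%), POLR2L at −0.75 and POLR2H at −0.73. Of 30 genes of nucleolar ribosome biogenesis 3 were up, WDR12 at 0.71, NOP2 at 0.67 and UTP15 at 0.60. Of 26 housekeeping reference genes 5 were up and 2 down, and the median was 0.28.

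**Figure D4:**
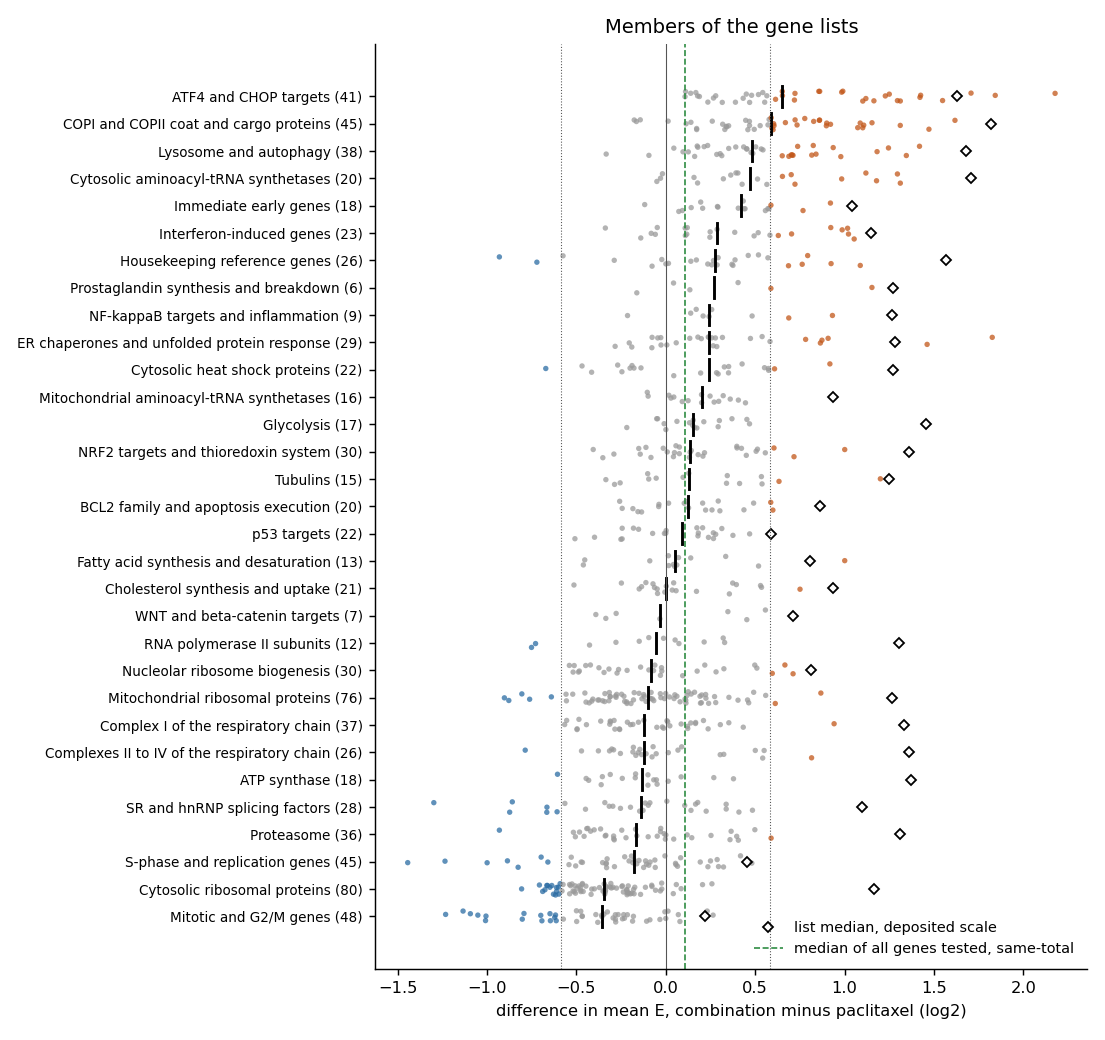
Difference in mean E, combination minus paclitaxel (log2, same-total scale), of each tested member of the gene lists with at least 5 tested genes, whose number is in brackets. Orange and blue points are past the 1.5-fold limits (dotted lines), black bars are list medians, open diamonds are list medians on the deposited scale and the dashed line is the median of all genes, 0.11. The ATF4 and CHOP list has the highest same-total median, 0.65, and the mitotic list the lowest, −0.36, although with index block 1 alone the mitotic median is −0.19 and that of cytosolic ribosomal proteins −0.35.

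Genes tied to the targets and effects of the drugs moved little in share, with a few exceptions. TUBB, the main beta-tubulin, had medians of 5.18 and 5.17 and differed by −0.10, and TUBB2A by 0.41. TUBA1A, an alpha-tubulin, differed by 1.20, with medians of 3.61 (0.00 to 7.20) and 4.73 (0.24 to 7.33), while its near copies TUBA1B and TUBA1C, with which it can share reads, were at −0.05 and −0.29. MAP4, a microtubule-binding protein, was at 0.63. Of the 6 prostaglandin genes tested 2 were up, PTGR1 at 1.15 and PTGR2 at 0.59, reductases that inactivate prostaglandins. PTGS2, the gene of cyclooxygenase 2, was not analysed here.

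Of 22 p53 targets 0 were past the limit on the same-total scale, with a median of 0.09. CDKN1A, the p21 inhibitor of the cell cycle, was detected in 25 of 56 paclitaxel cells and 16 of 59 combination cells and differed by −0.51, and GDF15, a stress cytokine, was detected in 21 and 28 cells and differed by 0.47. CDKN1A changed its sign with the means taken on the linear scale, at 0.37. Of 20 genes of the BCL2 family and apoptosis 2 were up, among them the death promoter BAD at 0.59.

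Of 23 interferon-induced genes 7 were up (30.4%) and none was down. IFITM2 and IFITM1, membrane proteins that hinder virus entry, differed by 1.05 and 0.99, and UBE2L6, the carrier of the ubiquitin-like ISG15, by 1.02. IRF9, part of the interferon transcription complex, was detected in 7 of 56 paclitaxel cells and 28 of 59 combination cells and differed by 1.02. It passed the 30% filter only through the combination cells. ISG15 itself was at −0.34. Of 18 immediate early genes 3 were up, the AP-1 subunit FOS at 0.92, KLF6 at 0.77 and BTG1 at 0.59, with a list median of 0.42. FOS was detected in 24 of 56 and 42 of 59 cells.

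Lipid and redox lists gave few calls. Of 21 cholesterol genes 1 was up, TM7SF2 at 0.75, and HMGCS1, the entry enzyme, was at −0.07. Of 13 fatty acid genes ME1 alone was up, at 1.00, and of 30 NRF2 and thioredoxin genes 3 were up, ME1, the NRF2 inhibitor KEAP1 at 0.72 and TXNIP at 0.61. Of 22 cytosolic heat shock genes DNAJB1 at 0.92 and HSPB1 at 0.61 were up and HSPB11 at −0.67 was down. Of 9 NF-kappaB and inflammation genes 2 were up, SERPINF1 at 0.93 and TNFRSF12A at 0.69, and of 7 WNT targets 0 were past the limit. The list of nuclear-retained RNAs had no member in the table.

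The same celecoxib dose and time without paclitaxel, 61 celecoxib cells against 46 control cells, shares no cell with the comparison above. All 61 celecoxib cells lay in index block 3, as did 25 combination cells, and all 46 control cells lay in a different block. Treatment and index block cannot be told apart in that contrast. The authors had removed 6 of 67 celecoxib wells and 11 of 57 control wells. There the log2 total fell by 1.52, against a rise of 1.48 with paclitaxel. The control median stood at 0.99 and the celecoxib median at −0.53 on the scale where the paclitaxel median is 0. On the deposited scale 3624 of the 6020 genes up with paclitaxel were down without it. On the same-total scale 706 of the 9175 genes were up without paclitaxel (7.69%) and 762 down (8.31%). Of the 924 genes up with paclitaxel, 240 were up without it (26.0%, or 34.0% of the 706 up there). A further 55 were down without it (5.95%, against 8.31% of all genes). Of the 158 genes down, 82 were down without it (51.9%, or 10.8% of the 762 down there) and 0 were up. Over the 9175 genes the Pearson correlation of the differences was 0.36 on the same-total scale and −0.37 on the deposited scale, given as a description across genes that share cells.

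By list, ATF4 and CHOP targets and mitotic genes were called in both settings. Of the 22 ATF4 and CHOP targets up with paclitaxel, 21 were up without it, where 31 of the 41 were up, against 7.69% of all genes. ASNS had a mean E of 2.50 in the control, 4.71 with celecoxib, 2.72 with paclitaxel and 4.90 with both. PHGDH differed by 1.84 with paclitaxel and 1.02 without, whereas DDIT4 differed by 1.43 and 3.77 and GDF15 by 0.47 and 3.22. Of the 15 mitotic genes down with paclitaxel, 14 were down without it, where 31 of the 48 were down, against 8.31% of all genes, and the list median was −0.90. CCNB1 went from 5.76 in the control to 3.24 with celecoxib and from 4.49 with paclitaxel to 3.35 with both.

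For the lysosomal, coat and tubulin genes the counts differed between the settings. Of all genes, 10.1% were up and 1.72% down with paclitaxel, and 7.69% up and 8.31% down without it. Of 38 lysosome and autophagy genes 15 were up with paclitaxel, and without it 3 were up and 9 down. Of 45 coat and cargo genes 23 were up with paclitaxel, and 5 up and 1 down without it, 4 of the 5 being among the 23. This list was written after the values with paclitaxel had been seen. The gap between its counts therefore carries no weight as a difference between the settings. COPB2 had mean E of 3.06 in the control and 3.01 with celecoxib, and of 2.59 with paclitaxel and 4.06 with both. TUBB went from 5.28 to 3.85 without paclitaxel and from 5.10 to 5.00 with it, and 7 of 15 genes of the tubulin list were down without paclitaxel and none with it. Of 36 proteasome genes 29 were down without paclitaxel and 1 with it. CDKN1A went from 0.83 to 2.34 without paclitaxel and from 1.23 to 0.72 with it. Its fall with paclitaxel was within the limit and changed its sign with linear means, at 0.37. These differences between the settings have 1 run per treatment behind each value and were not tested.

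**Figure D5:**
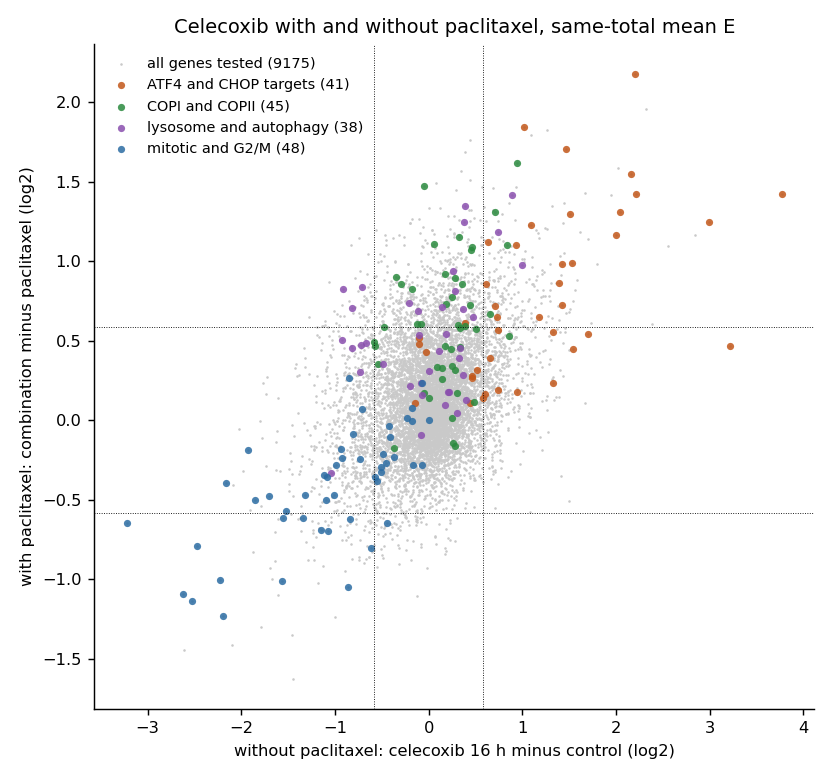
Difference in mean E on the same-total scale made by celecoxib with paclitaxel (y axis, combination minus paclitaxel, log2) against that without paclitaxel (x axis, celecoxib 16 h minus control, log2), for 9175 genes in grey and 4 lists in colour, with dotted lines at the 1.5-fold limits. Of the ATF4 and CHOP targets 21 lie above both limits and of the mitotic genes 14 lie below both. Of the coat and cargo genes 23 lie above the limit on the y axis and 5 above that on the x axis. The coat and cargo list was written after the y-axis values had been seen, so its higher count there carries no weight.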

How the data were processed

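Single A2780 cells were captured on a Fluidigm C1 system with 1 run per treatment and sequenced as Smart-seq2 libraries with 3 spike-in RNAs per well. The authors trimmed reads with Trim Galore, quantified them with RSEM 1.3.0 and Bowtie2 on GENCODE 28 transcripts of hg38, removed cells with few housekeeping genes and kept 9664 genes. They deposited log2 values, log2(N/10 + 1), where N is TPM relative to the highest spike-in; every value column was assigned to a sample, and those columns are the only measurements used. Here N was recovered and, for the same-total scale, each cell was rescaled to the median total of the 338 cells. Mean E of the combination cells minus that of the paclitaxel cells was called beyond 1.5-fold among genes detected in more than 30% of either group. With 1 run per treatment no test was made. A list score is the mean E of the list's tested members in a cell. Motifs were searched in RefSeq promoter windows, and gene positions and transcript lengths came from GENCODE 44.

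The members and gene lists were chosen with earlier results of these data known, and 3 lists (coat and cargo proteins, 2 lists of synthetases) after these values were seen. Named genes were the 10 largest rises and falls on the same-total scale and the 5 on the deposited scale among genes detected in at least 30% of both groups, up to 4 members of each list with the largest same-total difference, and CDKN1A, GDF15, IFITM1, IFITM2, DDIT3, ASNS, HMGCS1, TUBB, TUBB2A and CCNB1. Other genes named, such as CHAC1, COPB2, CDC20 and DDIT4, were chosen after their values were seen. Alternatives were another pseudocount, linear means, medians, other filters, other scalings, single index blocks and leaving out wells noted 0. The step that calls genes was tested by changing better-expressed genes by a known fold in randomly chosen paclitaxel cells. That fold was larger than the limit and no shift in total was simulated. Low genes, changes near the limit and a shift in total were thus not covered. The scripts ran under Python 3.11.15 with pandas 2.3.3 and numpy 2.4.6 for the arithmetic, scipy 1.17.1 for intervals and rank correlations, and matplotlib 3.10.9 for the plots. Some items are not reported here.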

Additional observations from a re-analysis of the deposited data

Results flagged for a closer look

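The effect of celecoxib on the transcript total had opposite signs in the presence and absence of paclitaxel. The median log2 total differed by 1.48 between the combination and paclitaxel cells and by −1.52 between the celecoxib and control cells. The difference between these values was not tested, since each treatment was 1 run, and the amount of spike-in per run cannot be told apart from the treatment.

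Among the 9175 genes on the same-total scale, 55 were up with paclitaxel and down without it, and 0 were the other way round. Those 55 were 5.95% of the 924 genes up with paclitaxel, a share below the 8.31% of all genes that were down without it. The largest gaps among genes detected in at least 30% of both groups were those of PGM3, an enzyme of the hexosamine pathway, at 1.10 with and −0.83 without paclitaxel, MRPS22, a mitochondrial ribosomal protein, at 0.87 and −1.07, and MT1X, a metallothionein, at 0.65 and −1.28. None of these differences was tested.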

How the results depend on the processing

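The difference in median log2 total stayed between 1.37 and 1.63 under its 5 alternatives, and the count of genes up on the deposited scale stayed within 1.5 times of 6020. The 3 genes down on that scale became 38 with a pseudocount of 1, 18 with the combination cells of index block 3 alone and 82 with median E in place of mean E. On the same-total scale the 924 up and 158 down became 2469 and 588 with a pseudocount of 1, 1567 and 321 with median E, 501 and 255 with 1 factor from the median ratio of linear means and, as an alternative added after seeing the data, 597 and 281 after subtracting the median difference of all genes. The count down was 269 with block 3 alone. The causes were not tested, beyond that a smaller pseudocount widens differences of low genes by its construction. On the deposited scale RRM2 had a difference of 0.20 with linear means and HSPB11 of −0.053 with block 3 alone, against the main signs. Both were past the limit in the main setting. Some named genes within the limit there also crossed 0 on the deposited scale. TK1 ran from −2.56 to 0.90 and UBE2C from −0.94 to 0.71 over the alternatives. CDKN1A, PCNA, CENPW and CCNB1 were also among those that crossed 0. On the same-total scale the list medians ran from 0.50 to 1.13 for ATF4 and CHOP targets, 0.44 to 0.81 for coat and cargo proteins, 0.34 to 0.90 for lysosome and autophagy, −0.69 to −0.19 for mitotic genes and −0.49 to −0.34 for ribosomal proteins over all alternatives. The range for coat and cargo proteins carries no weight, as that list was written after the values had been seen. No paired analysis was possible because cells of different treatments share no replicate numbers and each treatment was 1 run. Depth per cell was not known, so a value of 0 cannot be told from a missed transcript.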

Other observations

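In the combination cells the S-phase and mitotic scores varied together, with a Spearman rho of 0.74 over 59 cells, against 0.59 over the 56 paclitaxel cells. The ATF4 and mitotic scores had a rho of 0.25 in the combination cells and 0.48 in the paclitaxel cells. These are descriptions over cells of the same wells and share the total. Over 5 equal groups of 9154 genes by longest annotated transcript, the share of genes up on the same-total scale was 14.6%, 14.0%, 8.63%, 7.87% and 5.14% from the shortest to the longest, and the share down 3.60%, 1.37%, 1.64%, 0.984% and 1.04%. Over 5 groups of 1835 genes by mean same-total E, from lowest to highest, the genes up numbered 2, 58, 204, 392 and 268. The genes down numbered 0, 3, 18, 49 and 88. The shares over all genes set beside the lists are not matched for this level.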
